A study of Mus musculus with 24 samples.

Results

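Cat-Tg T cells were compared between the CD8 and the CD4 lineage before transplant. The members were the 3 libraries labelled Cat-Tg CD8 and the 3 labelled Cat-Tg CD4 at the pre-transplant time (pre-tx), 6 of the 24 libraries of the study, and each CD8 library was paired with the CD4 library of the same replicate number. Both groups came from the spleens of untreated Cat-Tg mice bred onto C57BL/6, which the paper describes as matched for age and sex. The Cat-Tg transgene is an N-terminally deleted human β-catenin driven in T cells by the proximal promoter of Lck, carried on 1 allele, and both groups hold it, so the comparison describes lineage differences among transgenic cells and not the effect of the transgene. The mice were 3 in number, and CD4 and CD8 cells of each mouse were sorted by flow cytometry into lysis reagent, without culture or stimulation. For cell sorting the methods describe a purification of T cells with magnetic beads before staining. The 6 Cat-Tg libraries at day 7 after transplant (post-tx) were used for a single comparison, given last. They were sorted from the spleens of irradiated BALB/c recipients of Cat-Tg CD4 and CD8 cells and T cell-depleted wild type bone marrow. Donor cells were sorted by H-2Kb, an antigen of the donor strain. Nothing in the labels says that a replicate number is a mouse, and p values measure the spread between these libraries.

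Mature αβ T cells carry either CD4 or CD8 as the coreceptor that binds MHC together with the T cell receptor. CD4 cells recognise MHC class II and give rise to helper and regulatory cells, and CD8 cells recognise MHC class I and give rise to cytotoxic cells. The choice is made in the thymus: ThPOK, encoded by Zbtb7b, holds the CD4 fate, and Runx3 with its partner CBFβ silences Cd4 and holds the CD8 fate. β-catenin acts in the nucleus with the DNA-binding factors TCF-1 and LEF-1, encoded by Tcf7 and Lef1, both of which are active in T cells.

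The 6 libraries held between 19283369 and 32547247 estimated counts in all, and 3 counts were worth 0.0991 to 0.154 CPM, the TMM-scaled count in which the pre-tx levels are given. Testing was limited to the 15337 genes that passed 1 CPM in 3 or more libraries. Of these, 439 were differentially expressed (DEGs, edgeR quasi-likelihood F test with the replicate number as a block, Benjamini-Hochberg adjusted p at most 0.05, absolute log2 fold change at least 1), which was 2.86% of the genes tested. DEGs higher in CD8 numbered 184 (1.2%) and DEGs higher in CD4 numbered 255 (1.66%). All fold changes below are CD8 minus CD4 on the log2 scale. The differences were larger among the DEGs higher in CD4. These DEGs included 15 of 18 spleen macrophage genes described below, and their part in the next figures was not tested. The median absolute log2 fold change was 1.45 for DEGs higher in CD8 and 3.21 for DEGs higher in CD4, and 17 against 95 of them passed 16-fold. The 2 groups of 3 libraries did not overlap for 420 of the 439 DEGs, and for 19% of all genes tested. Protein-coding genes made up 418 of the DEGs. Without the libraries of replicate 2 the DEGs numbered 240, of which 112 were higher in CD4, and there were 121 DEGs higher in CD8 without replicate 1 and 120 with no replicate block. With a replicate left out a gene still needed more than 1 CPM in 3 libraries. Genes low in CD8 or in CD4 could then go untested, and 370 to 383 of the 439 DEGs were tested. Counts with a replicate left out thus mix lost calls with untested genes.

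**Figure D1:**
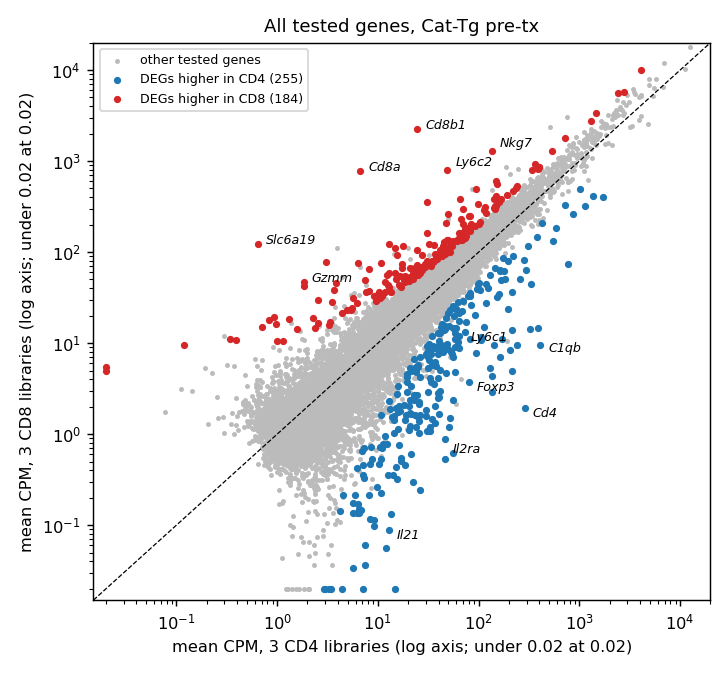
Mean CPM of each of the 15337 tested genes in the 3 CD4 libraries (x axis) and the 3 CD8 libraries (y axis), both on log axes with means under 0.02 drawn at 0.02 and the dashed line marking equal levels. Blue points are the 255 DEGs higher in CD4, red points the 184 higher in CD8, and grey points the other genes; the blue points reach farther from the line than the red ones.

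The coreceptor genes matched the labels of the 6 libraries. Cd8a, the α chain of CD8, was at 9.38, 6.73 and 3.94 CPM in CD4 replicates 1 to 3 and at 943, 544 and 867 CPM in CD8 replicates 1 to 3. Cd8b1, the β chain, was at 33.1, 14 and 27.0 CPM in CD4 and at 2524, 1676 and 2549 CPM in CD8. For both chains each CD8 library stood far above each CD4 library, and replicate 2 was the lowest of the CD8 libraries. The log2 fold change was 6.90 for Cd8a (SE 0.33, edgeR adjusted p = 7.87e-06) and 6.57 for Cd8b1 (SE 0.22, adjusted p = 8.28e-07). Cd4 ran the other way, at 367, 192 and 306 CPM in CD4 and at 1.08, 4.02 and 0.652 CPM in CD8. Its log2 fold change was -7.48 (SE 0.87, adjusted p = 0.0268), and the CD8 library of replicate 2 held the most Cd4 of the 3. Without replicate 1 the adjusted p of Cd4 was 0.356 in the same direction, and without replicate 2 it was below the filter. As a share of Cd4 plus Cd8a, Cd8a made up 99.3% to 99.9% in the CD8 libraries and 1.27% to 3.39% in the CD4 libraries.

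Zbtb7b, the CD4 lineage regulator, was at 34.6, 33.3 and 35.8 CPM in CD4 and at 2.10, 2.07 and 0.181 CPM in CD8. The 3 CD4 values lay close together, and the CD8 library of replicate 3 was close to the limit set by 3 counts. Its CD8 minus CD4 value was -4.93 (SE 0.72, edgeR adjusted p = 0.00678). Ctla4, an inhibitory receptor for B7 ligands, was at 57.5, 80.8 and 82.2 CPM in CD4 and at 16.6, 9.18 and 14.4 CPM in CD8 (log2 fold change -2.48, SE 0.33, adjusted p = 0.00293). Ctla4 was well above the limit set by 3 counts in both groups. On GRCm38 (GENCODE M21), Cd8a lies on chromosome 6 at 71373427 to 71379173 and Cd8b1 beside it at 71322788 to 71337494, both on the plus strand. Cd4 lies on the minus strand of chromosome 6 at 124864692 to 124888221, Zbtb7b on the minus strand of chromosome 3 at 89377644 to 89394776, and Ctla4 on the plus strand of chromosome 1 at 60887000 to 60915832.

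**Figure D2:**
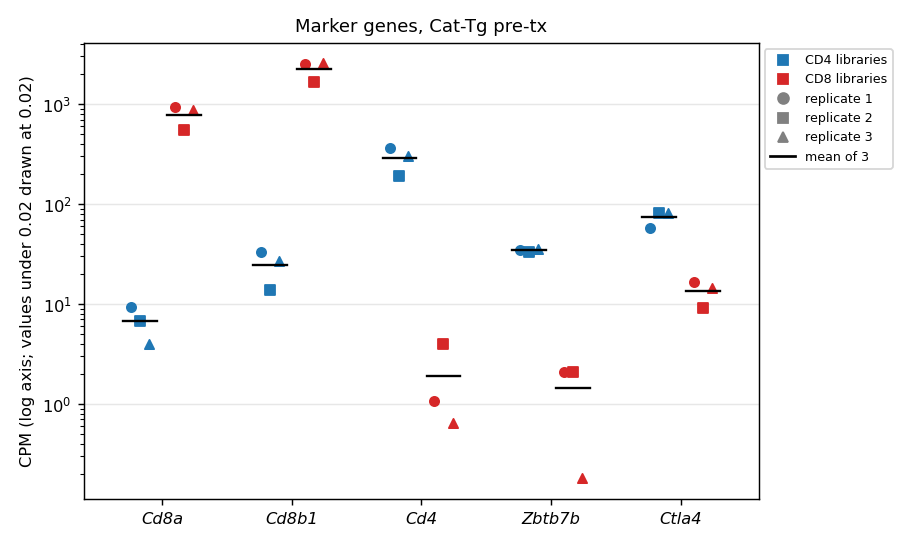
CPM (log axis) of the 5 marker genes in each Cat-Tg pre-tx library, with CD4 libraries in blue, CD8 libraries in red, a symbol for each replicate number and a bar at the mean of 3. The groups do not overlap for any of the 5 genes: Cd8a and Cd8b1 are high in CD8, and Cd4, Zbtb7b and Ctla4 are high in CD4.

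Promoter windows of 300 bases, 250 before and 50 after a start site, were read from RefSeq (GRCm38.p6) for a set of lineage regulators, coreceptors, cytotoxic and regulatory T genes, to show the sequence beside the measured level. Of 19 genes looked up, 12 had a window, and Cd8b1, Cd4, Itgae, Ctsw, Cd40lg, Klrd1 and Ccl5 had none. The 4 windows below are those of Cd8a and of the cytotoxic granule gene Nkg7, high in CD8, and of Zbtb7b and Ctla4, high in CD4. Capitals mark exact matches on either strand to the RUNX core TGTGGT (reverse complement ACCACA) or to the TCF/LEF core CTTTGAT (reverse complement ATCAAAG); the letters of the RUNX and TCF/LEF cores do not overlap in these windows.
Cd8a, chr6:71373177-71373476, plus strand: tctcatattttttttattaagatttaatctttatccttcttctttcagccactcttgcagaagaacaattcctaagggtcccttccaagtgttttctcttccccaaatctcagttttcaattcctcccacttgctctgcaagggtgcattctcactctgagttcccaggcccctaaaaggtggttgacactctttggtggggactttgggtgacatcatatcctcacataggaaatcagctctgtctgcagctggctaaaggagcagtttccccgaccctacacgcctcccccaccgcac
Nkg7, chr7:43436888-43437187, plus strand: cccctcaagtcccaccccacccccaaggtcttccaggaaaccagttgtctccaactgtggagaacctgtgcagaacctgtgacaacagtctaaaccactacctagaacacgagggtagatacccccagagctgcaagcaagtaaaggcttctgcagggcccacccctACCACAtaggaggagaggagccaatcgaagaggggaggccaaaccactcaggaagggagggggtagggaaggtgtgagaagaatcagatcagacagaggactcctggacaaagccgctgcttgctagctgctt
Zbtb7b, second window, chr3:89387622-89387921, minus strand: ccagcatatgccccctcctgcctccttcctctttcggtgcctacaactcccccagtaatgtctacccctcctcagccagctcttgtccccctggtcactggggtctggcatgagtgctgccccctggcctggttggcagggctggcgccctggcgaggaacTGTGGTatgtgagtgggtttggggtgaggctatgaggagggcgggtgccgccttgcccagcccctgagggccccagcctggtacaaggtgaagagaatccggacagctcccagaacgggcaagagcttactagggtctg
Ctla4, chr1:60908775-60909074, plus strand: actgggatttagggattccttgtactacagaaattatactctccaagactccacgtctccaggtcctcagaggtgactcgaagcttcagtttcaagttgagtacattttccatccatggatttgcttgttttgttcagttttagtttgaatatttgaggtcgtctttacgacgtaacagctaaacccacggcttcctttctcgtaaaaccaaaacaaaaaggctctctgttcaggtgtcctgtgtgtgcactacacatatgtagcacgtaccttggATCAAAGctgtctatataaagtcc

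Neither core was found in the Cd8a window. A RUNX core began 83 bases before the start site of Nkg7 and 89 bases before the second start site of Zbtb7b, whose first window held neither core, and the window of Ctla4 held a TCF/LEF core that began at base 27 after the start site. The RUNX core was in 16.8% of all 32851 windows and in 13.6% of the 13989 windows of genes tested, against 21.1% of the 185 windows of DEGs higher in CD8 and 20% of the 230 windows of DEGs higher in CD4. The TCF/LEF core was in 3.73% of all windows, in 2.94% of those of genes tested, in 5.41% of those of DEGs higher in CD8 and in 4.78% of those of DEGs higher in CD4. These shares count letters in a window and are given as a description.

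Few of the other regulators of lineage choice passed the test. Of 20 coreceptor and lineage factor genes, 3 were higher in CD8 and 2 higher in CD4 at an adjusted p of at most 0.05, against 1.61% and 1.71% of all genes tested (3.32% in either direction), and the median log2 fold change was 0.19 against -0.07 over all genes. These shares of all genes tested are also the background for the list counts that follow. The 3 were Cd8a, Cd8b1 and Mta2, a subunit of the NuRD chromatin complex, and the 2 were Cd4 and Zbtb7b. Runx3 was at 32.5, 22.6 and 32.5 CPM in CD4 and at 40.2, 35.8 and 39.6 CPM in CD8. The groups did not overlap, but the log2 fold change of 0.42 (SE 0.28) was not past the test (edgeR adjusted p = 0.533). Runx1, a relative of Runx3, was at -1.31 on the log2 scale (SE 0.36, adjusted p = 0.0825). Cbfb, their shared partner, had 0.50 (adjusted p = 0.624), Gata3, a factor of CD4 fate and helper cells, -0.43 (adjusted p = 0.529), and Tox, needed for CD4 commitment, -0.58 (adjusted p = 0.382). Mta2, higher in CD8 by 0.94 on the log2 scale (SE 0.18, adjusted p = 0.0216), lost its call without replicate 1 (adjusted p = 0.194), without replicate 3 (0.0551) and with no replicate block (0.0769).

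Most genes of the CD8 lineage list were higher in CD8. Of 20, 13 were higher in CD8 and 1, Fasl, was higher in CD4, with a median log2 fold change of 2.08 against -0.07 over all genes, and between 12 and 13 stayed called in that direction whichever replicate was left out. Nkg7, a membrane protein of cytotoxic granules, was at 141, 122 and 142 CPM in CD4 and at 1477, 1062 and 1323 CPM in CD8. Its log2 fold change was 3.24 (SE 0.17, edgeR adjusted p = 8.77e-06), and the lowest CD8 library exceeded the highest CD4 library many times over. Klrd1, the CD94 chain of natural killer receptors, was at 31.5, 37.8 and 23.9 CPM in CD4 and at 349, 443 and 270.3 CPM in CD8 (log2 fold change 3.51, SE 0.19, adjusted p = 8.77e-06). Ccl5, a chemokine stored by memory-type CD8 cells, was at 101.5, 90.2 and 90.9 CPM in CD4 and at 506, 384 and 579 CPM in CD8 (log2 fold change 2.36, adjusted p = 0.000178). Crtam, an adhesion receptor of activated CD8 cells, showed a log2 fold change of 2.63 and Dapl1, a marker of naive CD8 cells, 1.77, both with all 3 pairs in that direction. Eomes, a T-box factor of memory CD8 cells, was at 1.69, 1.96 and 3.17 CPM in CD4 and at 22, 18.5 and 16.5 CPM in CD8 (log2 fold change 3.10, SE 0.53, adjusted p = 0.012). Without replicate 2 the adjusted p of Eomes was 0.0782.

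Cytotoxic granule genes were divided. Of 19, 5 were higher in CD8 and 1 in CD4, and the median log2 fold change was 0.09 against -0.07 over all genes. Gzmm, a granule serine protease, was at 3.01, 1.16 and 1.35 CPM in CD4 and at 44.6, 30.8 and 51.4 CPM in CD8. Its log2 fold change of 4.60 (SE 0.43, edgeR adjusted p = 0.00039) was the largest of the list. Ctsw, a cathepsin of cytotoxic cells, and Cst7, a cathepsin inhibitor, had log2 fold changes of 2.60 (adjusted p = 0.00018) and 1.80 (adjusted p = 0.00116). Prf1, the pore-forming protein perforin, was at 45, 42.6 and 36.9 CPM in CD4 and at 129, 96.9 and 90.9 CPM in CD8 (log2 fold change 1.34, adjusted p = 0.00949). These 5 genes stayed called whichever replicate was left out. The granzymes of effector cells were low in both groups. Gzmb was at 3.07, 3.12 and 4.86 CPM in CD4 and at 17.3, 16 and 10.8 CPM in CD8 (log2 fold change 2.0, SE 0.55, adjusted p = 0.0869), and Gzma showed a log2 fold change of 1.61 (adjusted p = 0.0653). Neither passed the test, although the groups did not overlap for either gene. Fasl, the ligand of the death receptor Fas, was at 33.5, 42.3 and 46.7 CPM in CD4 and at 12.8, 9.80 and 9.35 CPM in CD8. It was higher in CD4 (log2 fold change -1.94, SE 0.34, adjusted p = 0.0139), with an adjusted p of 0.0778 without replicate 2.

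**Figure D3:**
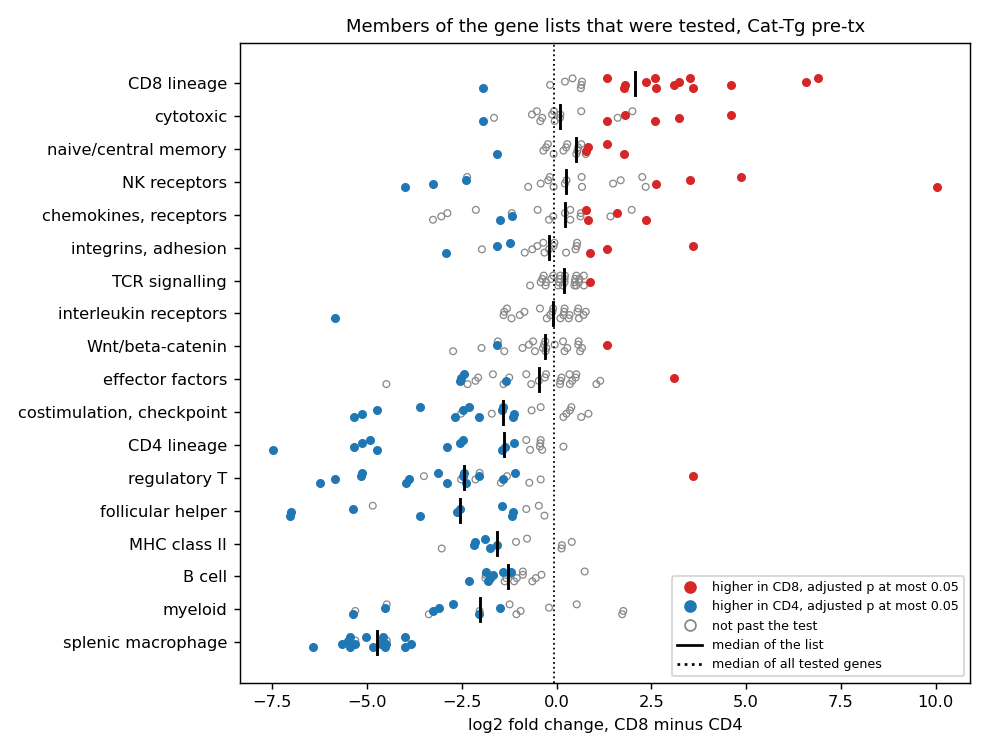
Log2 fold change, CD8 minus CD4, of the tested members of 18 gene lists, with members past an adjusted p of 0.05 filled in red (higher in CD8) or blue (higher in CD4), the others open, a bar at the median of each list and a dotted line at the median of all tested genes (-0.07). CD8 lineage genes lie to the right, and CD4 lineage, regulatory T, follicular helper and splenic macrophage genes to the left; the NK receptor at the far right is Klra6, which had no count in CD4, so its fitted position is no measured fold.

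The highest log2 fold change by the rule stated next belonged to Slc6a19, a neutral amino acid transporter known from intestine and kidney. It was at 1.12, 0.669 and 0.144 CPM in CD4 and at 176, 88.9 and 106 CPM in CD8 (log2 fold change 7.65, SE 0.45, edgeR adjusted p = 1.92e-05), with every CD8 library far above every CD4 library. By the rule of the 15 largest log2 fold changes among protein-coding DEGs with groups that did not overlap and a mean of at least 10 CPM in the higher group, Cd8a and Cd8b1 followed. The next were Syt6 (5.48), a synaptotagmin, Tubb3 (5.33), a β-tubulin known from neurons, and Klra7 (4.86), a Ly49 receptor. Ggt1, which cleaves glutathione outside the cell, was at 1.39, 3.61 and 4.23 CPM in CD4 and at 112, 65.5 and 57.3 CPM in CD8 (log2 fold change 4.70, adjusted p = 0.00145). Adgrb2, an adhesion receptor (4.70), Lcn4, a lipocalin (4.67), Wdr95 (4.64), Gzmm (4.60), Fam241a (4.11), Ly6c2 (4.03), Stx2, a syntaxin of membrane fusion (3.74), and Itgae (3.59) completed the 15. Adgrb2 lost its call without replicate 2 (adjusted p = 0.134), as did Klra7 (0.0535).

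Ly6c1 and Ly6c2 moved in opposite directions. These neighbouring genes encode the near-identical surface proteins of the Ly6C marker, which is high on memory-type CD8 cells. Ly6c2 was at 46.8, 39.2 and 60.9 CPM in CD4 and at 915, 642 and 826 CPM in CD8 (log2 fold change 4.03, SE 0.20, edgeR adjusted p = 7.87e-06). Ly6c1 was at 221, 207 and 289 CPM in CD4 and at 16.6, 8.08 and 4.24 CPM in CD8 (log2 fold change -4.81, SE 0.45, adjusted p = 0.00116), and its adjusted p was 0.081 without replicate 2. Reads of such paralogs can be assigned to the wrong copy, so the split between the 2 genes is uncertain. Among 14 tested genes of innate-type memory CD8 cells, 3 were higher in CD8 (Ly6c2, Ccl5, Eomes) and 2 in CD4 (Ly6c1, Cd44), with a median log2 fold change of 0.05. Il2rb, the IL-2 and IL-15 receptor β chain of memory CD8 cells, was at 390.0, 326 and 383 CPM in CD4 and at 323, 356 and 300.4 CPM in CD8. The groups overlapped (log2 fold change -0.17, adjusted p = 0.725), and Tbx21, the T-box factor T-bet, had 0.35 (adjusted p = 0.628).

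Natural killer receptors were split between the lineages. Of 27 listed, 21 were tested, 4 were higher in CD8 and 3 in CD4, with a median log2 fold change of 0.26, which setting Klra6 at its bound does not move. Without replicate 2 the counts were 2 and 1. Klrd1, Crtam, Klra7 and Klra6 were the 4. Klra6, an inhibitory Ly49 receptor, had 0 counts in the 3 CD4 libraries and 7.59, 2.91 and 5.69 CPM in CD8, at least 37.4-fold higher when CD4 is set at the highest CPM that 3 counts make in a CD4 library. The Ly49 genes are close copies of each other, and the assignment of reads among Klra6, Klra7 and the others is uncertain. Higher in CD4 were Klrb1c, the NK1.1 receptor, Klrg1, an inhibitory receptor of differentiated cells, and Fcgr4, an Fc receptor of myeloid cells. Klrb1c was at 49.7, 40.0 and 78.1 CPM in CD4 and at 11.4, 1.85 and 7.97 CPM in CD8 (log2 fold change -3.25, SE 0.45, edgeR adjusted p = 0.00456). Klrg1 showed a log2 fold change of -2.38 (adjusted p = 0.00964) and Fcgr4 -4.01 (adjusted p = 0.0362), and without replicate 2 the adjusted p was 0.0577 for Klrg1 and 0.116 for Fcgr4. Ncr1, which marks natural killer cells, was between 0.051 and 5.65 CPM in the 6 libraries.

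Genes of naive and recirculating T cells were higher in CD8 where they passed the test. Of 17, 4 were higher in CD8, among them Ccr7, S1pr1 and Dapl1, and 1, the memory marker Cd44, was higher in CD4, with a median log2 fold change of 0.52 against -0.07 over all genes. Without replicate 1 only 1 of the 4 was called, and without replicate 3 or with no replicate block there were 2. Cd44 was at 64.8, 78.8 and 48.9 CPM in CD4 and at 25.1, 20.6 and 18.4 CPM in CD8 (log2 fold change -1.57, adjusted p = 0.0126, and 0.0741 without replicate 2). Ccr7, a lymph node homing receptor, and S1pr1, which guides exit from lymphoid tissue, had log2 fold changes of 0.82 and 0.78 (adjusted p = 0.0248 and 0.0347). Both lost the call without replicate 1 (0.360 and 0.327), without replicate 3 (0.088 and 0.16) and with no replicate block (0.11 and 0.12). Tcf7 (0.28), Il7r, the IL-7 receptor (0.18), and Klf2, which drives S1pr1 (0.52), did not pass the test (adjusted p = 0.515, 0.678 and 0.401).

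Homing and adhesion receptors differed in both directions. Itgae, the αE integrin CD103 that binds E-cadherin on epithelium, was at 5.19, 5.30 and 8.46 CPM in CD4 and at 93.1, 59.5 and 74.3 CPM in CD8 (log2 fold change 3.59, SE 0.32, edgeR adjusted p = 0.000326). Ccr9, a gut homing receptor, was at 25, 17.4 and 30.9 CPM in CD4 and at 66.9, 65.6 and 86.0 CPM in CD8 (log2 fold change 1.6, adjusted p = 0.00916, and 0.0636 without replicate 2). On the CD4 side, Itgb3, the β3 integrin, showed a log2 fold change of -2.92 (adjusted p = 0.00293) and Itgb1, the β1 integrin of memory cells, one of -1.24 (adjusted p = 0.00916). Among 19 adhesion genes 3 were higher in CD8, among them Itgae and Selplg, and 3 in CD4 (Itgb1, Itgb3, Cd44), with a median of -0.20. Selplg, the selectin ligand PSGL-1, showed a log2 fold change of 0.88 (adjusted p = 0.0162) and an adjusted p of 0.162 without replicate 1. Of 21 tested chemokine and migration genes, 4 were higher in CD8 (Ccl5, Ccr7, Ccr9, S1pr1) and 2 in CD4 (Cxcr5, Ccr2), with a median of 0.22, and 2 were higher in CD8 with no replicate block. Ccr2, a receptor of monocytes and memory T cells, showed a log2 fold change of -1.49 (adjusted p = 0.0363), and its call was lost without replicate 1 (0.0745) and without replicate 2 (0.136). Cxcr3 and Cxcr6, receptors of effector and memory cells, had log2 fold changes of -0.50 and -0.09 (adjusted p = 0.266 and 0.853).

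Genes of the CD4 lineage were higher in CD4 in 11 of 18 cases and in CD8 in none, with a median log2 fold change of -1.39 against -0.07 over all genes. The number called was 9 without replicate 1, 6 without replicate 2 and 8 without replicate 3. Cd40lg, the ligand by which helper cells activate B cells, was at 46.7, 36.3 and 38.0 CPM in CD4 and at 2.36, 1.99 and 0.652 CPM in CD8. Its log2 fold change was -4.74 (SE 0.48, edgeR adjusted p = 0.000647), and the CD8 values were a small part of the CD4 values in all 3 pairs. Izumo1r, the folate receptor 4 of regulatory and anergic CD4 cells, was at 318, 304 and 379 CPM in CD4 and at 44.2, 41.9 and 49.3 CPM in CD8 (log2 fold change -2.88, SE 0.19, adjusted p = 3.19e-05). Tnfrsf4, the costimulatory receptor OX40, was at 129, 132 and 144 CPM in CD4 and at 5.54, 1.5 and 6.09 CPM in CD8 (log2 fold change -5.12, SE 0.42, adjusted p = 0.000264). Icos, a costimulatory receptor of helper cells, was lower in CD8 by a log2 fold change of -1.43 (adjusted p = 0.00949), and Tnfsf11, the ligand RANKL, had -5.35 (adjusted p = 0.00964). Cd28, Maf and Trat1 completed the 11 together with Cd4, Zbtb7b and Ctla4, at log2 fold changes of -1.12, -2.55 and -1.36. Cd28 and Maf lost the call without replicate 2 (adjusted p = 0.0924 and 0.0593) and without replicate 3 (0.0588 and 0.0849). Trat1 lost it without replicate 2 (0.0782) and with no replicate block (0.0638). Tnfrsf18, the receptor GITR, was at 279.6, 271 and 362 CPM in CD4 and at 242, 173 and 273 CPM in CD8 (log2 fold change -0.42, adjusted p = 0.27), and these ranges overlapped.

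Costimulatory and checkpoint receptors and ligands were higher in CD4 in 12 of 22 cases and in CD8 in none, with a median log2 fold change of -1.42; 6 were called without replicate 2 and 8 without replicate 3. Pdcd1, the inhibitory receptor PD-1, was at 115, 81.4 and 84.4 CPM in CD4 and at 9.29, 8.70 and 5.44 CPM in CD8 (log2 fold change -3.60, SE 0.29, edgeR adjusted p = 0.000151). Each CD4 library was well above each CD8 library. Cd200, the ligand of an inhibitory receptor on myeloid cells, was at 64.2, 61.2 and 61.1 CPM in CD4 and at 15, 9.84 and 5.98 CPM in CD8 (log2 fold change -2.69, adjusted p = 0.00218). The exhaustion-associated receptors Lag3 (-2.32, adjusted p = 0.0493) and Tigit (-2.05, adjusted p = 0.0279) were also higher in CD4. Without replicate 2 their adjusted p values were 0.166 and 0.119, and Lag3 also lost the call without replicate 3 (0.0779). Havcr2, the receptor TIM-3, showed a log2 fold change of -2.52 that did not pass (adjusted p = 0.133). Cd226, an activating receptor that shares its ligand with Tigit, was at 42.6, 65.3 and 37.8 CPM in CD4 and at 75.4, 101.2 and 79.6 CPM in CD8 (log2 fold change 0.84, adjusted p = 0.0781).

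Regulatory T cell genes were higher in CD4 in 14 of 23 tested cases and in CD8 in 1, Itgae, with a median log2 fold change of -2.45; Areg, the remaining member, was below the filter. The number higher in CD4 was 6 without replicate 2 and 11 with no replicate block. Foxp3, the defining factor of regulatory T cells, was at 77.5, 79.6 and 81.9 CPM in CD4 and at 0.924, 1.15 and 9.10 CPM in CD8. The 3 CD4 libraries were nearly equal, and the CD8 library of replicate 3 held several times more Foxp3 than the other CD8 libraries. The log2 fold change was -5.15 (SE 0.70, edgeR adjusted p = 0.00943), with an adjusted p of 0.245 without replicate 1 and 0.105 without replicate 2. Il2ra, the high-affinity IL-2 receptor chain CD25, was at 50.4, 48.1 and 39.4 CPM in CD4 and at 0.872, 1.41 and 0.362 CPM in CD8 (log2 fold change -5.84, SE 0.47, adjusted p = 0.00016). Nrp1 (-3.96, adjusted p = 0.00198), a marker of thymus-derived regulatory cells, and Ikzf2 (-2.45, adjusted p = 0.00917), the factor Helios, passed the test whichever replicate was left out. Lrrc32, which displays latent TGF-β, was at 31.7, 16.4 and 25.7 CPM in CD4 and at 0.821, 0.706 and 6.49 CPM in CD8 (log2 fold change -3.90, adjusted p = 0.0172). As with Foxp3, the CD8 library of replicate 3 was the highest of its group. Lrrc32 had an adjusted p of 0.122 without replicate 2 and of 0.0659 with no replicate block. Ebi3 (-6.25) and Entpd1 (-3.13), a subunit of IL-35 and the ectonucleotidase CD39, had adjusted p values of 0.0161 each, and Entpd1 had 0.0663 without replicate 2 and 0.11 with no replicate block. Capg (-1.10, adjusted p = 0.0235) and Tnfrsf9, the receptor 4-1BB (-1.42, adjusted p = 0.0416), had adjusted p values of 0.0535 and 0.142 without replicate 2 and of 0.146 and 0.124 with no replicate block. Members that did not pass included Gpr83 (-2.52, adjusted p = 0.0711), Nt5e, the ectonucleotidase CD73 (-0.72, adjusted p = 0.265), and Il10, between 0.051 and 4.59 CPM in the 6 libraries. In these bulk libraries fewer cells of a type and less RNA per cell cannot be told apart. The CD4 libraries also held more RNA of the spleen macrophage genes described below, at summed levels of 1953 to 3422 CPM against 84.7 to 147 CPM in CD8. The part of macrophages or other cells in the regulatory T count was not tested.

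Follicular helper genes showed the same side. Of 13 tested, 9 were higher in CD4 and none in CD8, with a median log2 fold change of -2.55; 3 were called without replicate 2, 5 without replicate 3, and Ascl2 and Cebpa were below the filter. Il21, the cytokine that follicular helper cells supply to B cells, was at 10.2, 20 and 8.37 CPM in CD4 and at 0.103, 0.088 and 0.072 CPM in CD8. Summed over libraries these were 931 and 6 counts, a ratio of 147 (95% interval 67.4 to 402, exact binomial, counting error only; edgeR adjusted p = 0.00131). Il4, the cytokine of type 2 and follicular helper cells, had 519 counts in CD4 and 4 in CD8, a ratio of 123 (95% interval 47.8 to 454; adjusted p = 0.00916). P2rx7, an ATP-gated channel, showed a log2 fold change of -2.64 (adjusted p = 0.00484) and Angptl2, a secreted protein, one of -5.37 (adjusted p = 0.0122). Cxcr5, the B cell follicle homing receptor, was at 69.8, 62.8 and 56.5 CPM in CD4 and at 22.7, 28.2 and 33.0 CPM in CD8. Its log2 fold change was -1.18 (adjusted p = 0.0493), and the call was lost without replicate 1 (0.153), without replicate 2 (0.137) and with no replicate block (0.0512). Btla, an inhibitory receptor, lost its call (-1.14, adjusted p = 0.0264) without replicate 2 (0.0872), without replicate 3 (0.114) and with no replicate block (0.0517). Bcl6, the defining factor of follicular helper cells, was at 10.2, 3.88 and 11.7 CPM in CD4 and at 10.2, 4.11 and 4.10 CPM in CD8, and the groups overlapped (adjusted p = 0.777). Of 10 tested helper cytokine genes only Il21 and Il4 passed, and neither could be tested with a replicate left out, because CD8 held too few counts to pass the filter. The other 7 of 17 were below the filter. Ifng was between 0.145 and 2.98 CPM and Il2 between 0.036 and 1.95 CPM in the 6 libraries.

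Many of the largest differences on the CD4 side were in genes of spleen macrophages. By the rule used for the CD8 side, the 15 lowest log2 fold changes belonged to Gm2663, Cd4, Plekhf1, Il21, Atp6v0d2, Clec4n, Mrc1, Slco2b1, Sdc3, Ebi3, Il2ra, Tmem51, Pla2g7, P2ry13 and Cd5l. Of these, Mrc1 (the mannose receptor), Clec4n (the lectin dectin-2), Cd5l and Pla2g7 are known macrophage products. Clec4n was at 53.6, 47.2 and 37.3 CPM in CD4 and at 0.103, 0.132 and 1.38 CPM in CD8 (log2 fold change -6.86, SE 0.84, edgeR adjusted p = 0.0034). Cd5l lost its call without replicate 2 (adjusted p = 0.0542). Gm2663 had 0 counts in the CD8 libraries and 10.2, 27.4 and 6.35 CPM in CD4, at least 95.2-fold higher when CD8 is set at the highest CPM that 3 counts make there. Plekhf1, an endosome protein, had 854 counts in CD4 and 4 in CD8, a ratio of 203 (95% interval 78.8 to 745).

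A list of 18 genes of spleen macrophages was added after these values were seen, so its counts only describe what was found. Of these, 15 were higher in CD4 and none in CD8, with a median log2 fold change of -4.74, and 8 were called without replicate 2. C1qb, a chain of complement C1q, was at 541, 286 and 405 CPM in CD4 and at 11.6, 10.6 and 6.13 CPM in CD8 (log2 fold change -5.44, SE 0.29, edgeR adjusted p = 9.48e-06). Hmox1, which breaks down haem in macrophages of the red pulp, was at 446, 213 and 312 CPM in CD4 and at 17.1, 9.84 and 15.5 CPM in CD8 (log2 fold change -4.49, adjusted p = 6.76e-06). Vcam1, an adhesion molecule of these macrophages, showed a log2 fold change of -4.85 (adjusted p = 8.37e-05). Spic, the factor of red pulp macrophages, was at 183, 204 and 181 CPM in CD4 and at 1.39, 15.3 and 14.6 CPM in CD8, and did not pass the test (log2 fold change -4.58, adjusted p = 0.0883). The summed level of the 18 genes was 3422, 1953 and 2584 CPM in CD4 replicates 1 to 3 and 147, 92.6 and 84.7 CPM in CD8 replicates 1 to 3. None of the 18 was at 0 in any CD4 library.

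Markers of B cells and MHC class II differed less and in the same direction. Of 20 B cell genes 7 were higher in CD4, 3 without replicate 2 or without replicate 3 and 4 with no replicate block, with a median log2 fold change of -1.28 and a summed level of 3378 to 5241 CPM in CD4 and 1452 to 3282 CPM in CD8. Igkc, the immunoglobulin κ constant region, was at 1385, 1121 and 1593 CPM in CD4 and at 549, 255 and 424 CPM in CD8 (log2 fold change -1.80, SE 0.19, edgeR adjusted p = 0.00112). Ms4a1, which encodes CD20, showed a log2 fold change of -1.42 (adjusted p = 0.0493, and 0.146 without replicate 2, 0.171 without replicate 3 and 0.0849 with no replicate block). Of 106 tested immunoglobulin segment genes 13 were higher in CD4, with a median of -1.80, and 5 without replicate 2. Of 11 MHC class II genes 5 were higher in CD4, with a median of -1.56, and 3 with no replicate block, where the adjusted p was 0.0698 for H2-Eb1 and 0.146 for H2-DMb1 (edgeR). Cd74, the invariant chain, was at 2217, 1223 and 1731 CPM in CD4 and at 642, 289 and 283 CPM in CD8 (log2 fold change -2.16, adjusted p = 0.000339). H2-Aa and H2-Ab1, the chains of I-A, had log2 fold changes of -1.76 and -1.88. All 6 libraries held B cell transcripts. Of 18 myeloid genes 7 were higher in CD4 (2 without replicate 2), with a median of -2.03, among them Cd68 (-3.27) and Fcgr3 (-3.10). The neutrophil genes S100a8 and S100a9 did not follow the cell type. S100a8 was at 115, 167 and 334 CPM in CD4 and at 1073, 915 and 182 CPM in CD8, with CD8 replicates 1 and 2 apart from the other 4 libraries. The haemoglobin genes did the same: the 12 erythroid and platelet genes summed to 1434, 1503 and 2275 CPM in CD4 and to 12670, 7324 and 1778 CPM in CD8, and none of 11 tested passed in the edgeR fit. Without replicate 3, 6 of them were higher in CD8.

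**Figure D4:**
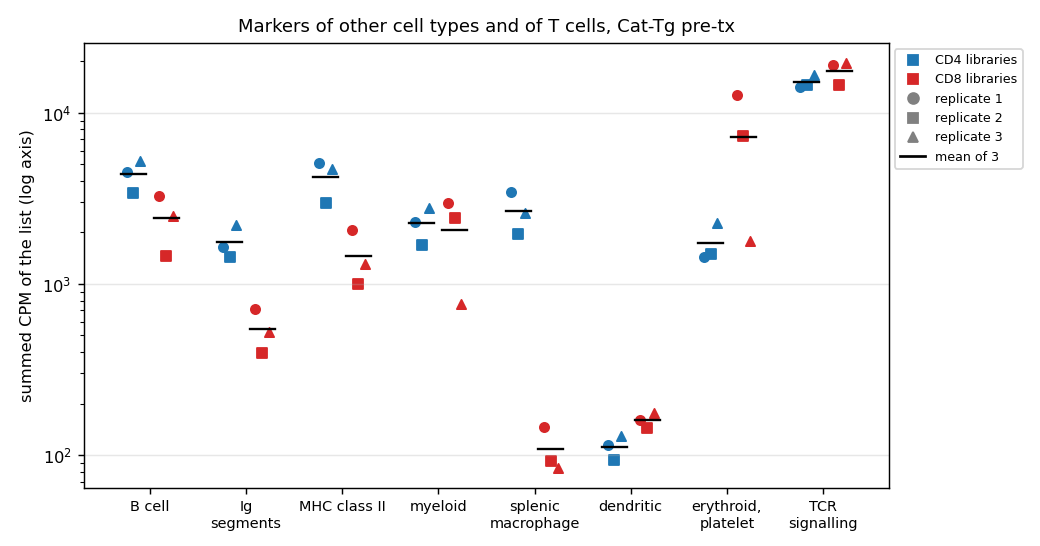
Summed CPM (log axis) of marker lists of other cell types and of T cell receptor signalling genes in each Cat-Tg pre-tx library, with CD4 libraries in blue, CD8 libraries in red, a symbol for each replicate number and a bar at the mean of 3. The splenic macrophage sum is 1953 to 3422 CPM in CD4 and 84.7 to 147 CPM in CD8, the B cell sums are closer, and the erythroid sum is high in CD8 replicates 1 and 2 only.

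The part of these other cells in the CD4 and CD8 differences was not tested. With the B cell, myeloid, MHC class II, immunoglobulin and haemoglobin genes taken out before normalization, 397 genes were DEGs, of which 176 were higher in CD8 and 221 in CD4. In that fit 13 CD8 lineage genes were higher in CD8 and 11 CD4 lineage and 14 regulatory T genes higher in CD4, and so were 14 of the macrophage genes left in, after Sirpa, Csf1r and Adgre1 had been taken out with the myeloid list. Cd3e, Cd3g and Trac, the core of the T cell receptor complex, had log2 fold changes of 0.21, 0.10 and -0.09 (edgeR adjusted p = 0.605, 0.835 and 0.849). The median of 26 receptor signalling genes was 0.18. Lck, the kinase that binds the coreceptor tails, was at 1589, 1537 and 1758 CPM in CD4 and at 3264, 1960 and 2982 CPM in CD8 (log2 fold change 0.72, SE 0.17, adjusted p = 0.0581). Cd5, an inhibitory receptor set by the strength of self recognition, was at 363, 353 and 368 CPM in CD4 and at 243, 200.5 and 227 CPM in CD8 (log2 fold change -0.70, adjusted p = 0.0581). The groups overlapped for neither gene, and neither passed.

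Variable segments of the T cell receptor were mostly even. Of 163 annotated α and β segments 100 were tested, 5 were higher in CD8 and none in CD4, with a median log2 fold change of -0.06. The share called was 5%, against 3.32% of all genes tested. All 5 were β segments. Most α segments were at low CPM with a larger SE than these 5, so the lack of α segments among the calls cannot be interpreted. Trbv12-1 was at 14.8, 11.0 and 18.1 CPM in CD4 and at 64.2, 44.6 and 69.7 CPM in CD8 (log2 fold change 2.03, SE 0.28, edgeR adjusted p = 0.00365). Trbv14 (1.64), Trbv17 (1.59), Trbv29 (1.54) and Trbv16 (0.92) had adjusted p values from 0.0125 to 0.0423. The number called was 1 without replicate 2, 2 without replicate 3 and 3 with no replicate block.

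Of 27 listed genes of the Wnt and β-catenin pathway 23 were tested, 1 was higher in CD8 (Myc) and 1 in CD4 (Cd44), or 8.7% against 3.32% of all genes tested, and the median log2 fold change was -0.30 against -0.07 over all genes. Myc, a transcription factor gene and target of the pathway, was at 28.9, 29.9 and 28.6 CPM in CD4 and at 82.2, 58.7 and 83.7 CPM in CD8 (log2 fold change 1.34, SE 0.26, edgeR adjusted p = 0.0202). Its adjusted p was 0.0544 without replicate 1 and 0.0712 without replicate 3. Ctnnb1, mouse β-catenin itself, showed a log2 fold change of 0.67 (adjusted p = 0.169) and Lef1 one of 0.57 (adjusted p = 0.117). Axin2, the classic feedback target, averaged 2.23 CPM in CD4 and 3.83 CPM in CD8 (adjusted p = 0.945), and Rnf43, a feedback inhibitor, showed a log2 fold change of -2.73 (adjusted p = 0.0693). The RNA of the human transgene was not analysed here.

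The share called in the remaining lists ranged from 0% for proliferation genes to 18.5% for effector factors, against 3.32% of all genes tested. It was 4.35% for interleukin receptors, 16.7% for early response genes, 14.3% for γδ and NKT genes and 10% for dendritic cell genes. Of 27 effector factor genes 1, Eomes, was higher in CD8 and 4 (Ikzf2, Maf, Nr4a1, Irf8) were higher in CD4, with a median of -0.47, and 2 and 1 of the 4 were called without replicate 2 and without replicate 3. Nr4a1, an immediate target of receptor signalling, was at 27.4, 13.7 and 37.8 CPM in CD4 and at 5.28, 4.33 and 3.19 CPM in CD8 (log2 fold change -2.53, SE 0.49, edgeR adjusted p = 0.0217, and 0.0865 without replicate 3). Irf8 (-1.33, adjusted p = 0.0382), a factor of myeloid and B cells, lost its call without replicate 2 (0.0778), without replicate 3 (0.2) and with no replicate block (0.216). Of 23 tested interleukin receptor genes Il2ra alone passed. Ier3, a survival gene of the early response, was at 1.92, 4.24 and 4.38 CPM in CD4 and at 34.8, 21.3 and 29.5 CPM in CD8 (log2 fold change 3.07, adjusted p = 0.00902). It was 1 of 12 tested early response genes higher in CD8, and Nr4a1 was the 1 higher in CD4. None of 14 proliferation genes passed, with a median log2 fold change of 0.16, and Mki67 averaged 12.2 CPM in CD4 and 11.9 CPM in CD8. Of 7 tested genes of γδ and NKT cells 1, Blk, a kinase of B cells and some γδ cells, was higher in CD4, with an edgeR adjusted p of 0.081 without replicate 2. Of 10 tested dendritic cell genes 1, Ccr9, was higher in CD8. The 4 Y-linked transcripts were present in both groups at summed levels of 215 to 270 CPM in CD4 and 138 to 227 CPM in CD8, and none passed.

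The same CD8 minus CD4 difference was set beside the one at post-tx. The host, the transfer of wild type marrow, the Y-linked RNA and the macrophage RNA also differed between the times, as given under the flagged results. In the 6 Cat-Tg post-tx libraries, fitted alone, 1236 of 12218 genes were DEGs (10.1%), 303 higher in CD8 and 933 in CD4. The difference of the 2 differences was tested as an interaction in the 12 Cat-Tg libraries, where 157 of 16249 genes passed (0.966%). CD8 minus CD4 was larger post-tx for 59 of them and smaller for 98, and the number was 26 without replicate 2, 325 without replicate 3 and 290 with no replicate block. The means in this comparison are in CPM scaled over the 12 libraries together and so differ a little from the pre-tx levels above. Cd4, Cd8a and Cd8b1 kept their sides: at post-tx, Cd8a averaged 677 CPM in CD8 and 2.28 CPM in CD4, and Cd4 averaged 3.13 CPM in CD8 and 719 CPM in CD4. Pdcd1 changed sides. It averaged 89.1 CPM in CD4 and 7.27 CPM in CD8 at pre-tx, against 271 and 920 CPM at post-tx, an interaction of 5.37 (SE 0.36, edgeR adjusted p = 5.84e-05). Foxp3 averaged 76.0 CPM in CD4 and 3.55 CPM in CD8 at pre-tx, against 51.8 and 35.1 CPM at post-tx (interaction 4.66, SE 0.89, adjusted p = 0.0288). Itgae averaged 6.01 CPM in CD4 and 70.8 CPM in CD8 at pre-tx, against 10.6 and 4.02 CPM at post-tx (interaction -4.93, SE 0.60, adjusted p = 0.00218). In the wild type libraries of the pre-tx time 20 of 16030 genes were DEGs (0.125%), and Cd8a made up 50% to 63.9% of Cd4 plus Cd8a in those labelled CD8 and 52.4% to 65.4% in those labelled CD4. The wild type pre-tx libraries labelled CD8 and CD4 did not separate by coreceptor, and no comparison of Cat-Tg with wild type was drawn.

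**Figure D5:**
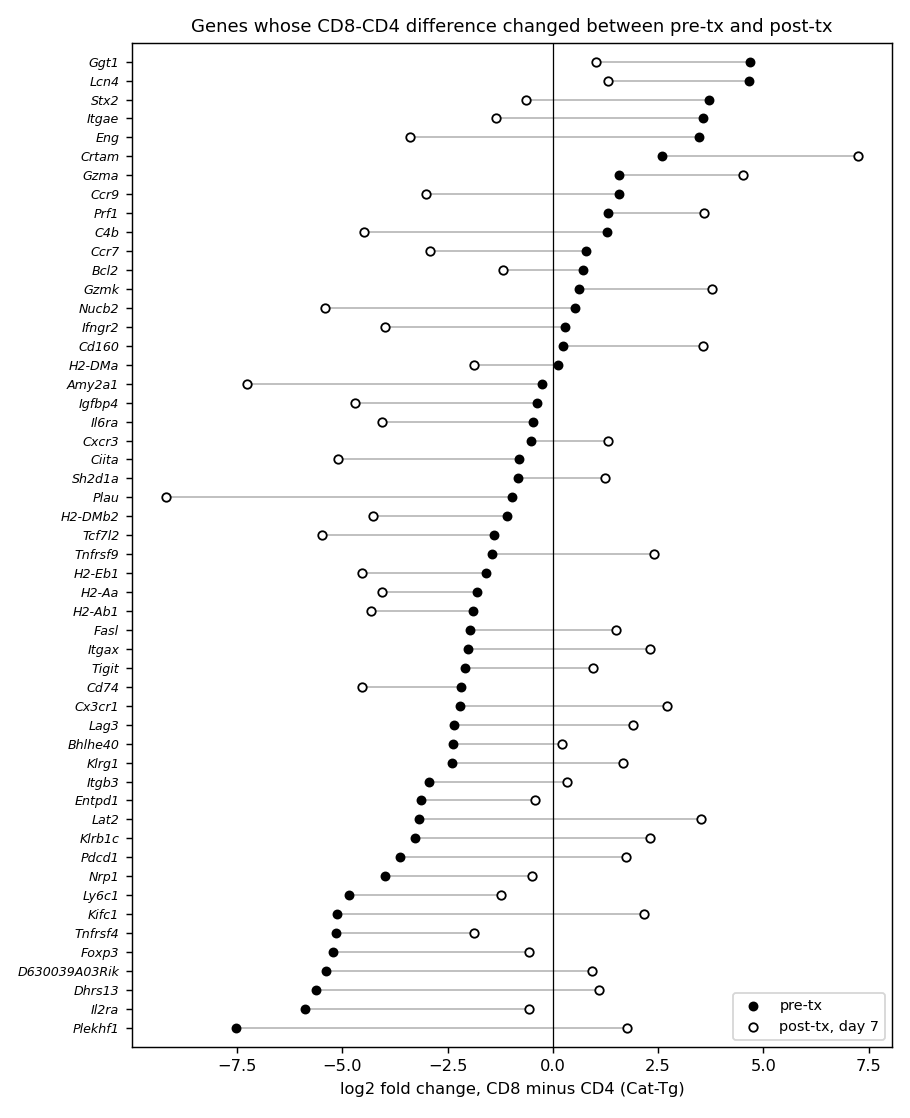
Log2 fold change, CD8 minus CD4, in Cat-Tg cells at pre-tx (filled circles) and at post-tx day 7 (open circles) for the 52 named genes whose difference passed the interaction test, ordered by the pre-tx value. Lines join the 2 values of a gene and cross 0 for genes such as Pdcd1, Lag3, Itgae and Ccr9 that were on opposite sides at the 2 times.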

How the data were processed

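RNA was sequenced from full-length cDNA amplified from sorted splenic T cells, and the submitters' processing notes name kallisto 0.46.2, limma and the build mm9. The deposited tables hold estimated counts and TPM per transcript, which the authors made with kallisto by assigning reads to transcripts; the release of the index is not given in the sources used here. Of 117497 transcripts, 116428 were matched by ID to GENCODE M21 (GRCm38) and 1069 were not, and matched transcripts held 99.69% to 99.76% of the counts of the 6 libraries. Estimated counts were summed to 35907 genes and rounded; TPM was used only for an alternative based on length-scaled counts.

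The main test was edgeR 4.0.16 (R 4.3.3), a robust quasi-likelihood F test with TMM normalization, the replicate number as a block and Benjamini-Hochberg adjustment over all genes tested. Genes needed more than 1 CPM in at least 3 libraries, also in the fits with a replicate left out. SE is the log2 fold change divided by the root of F. The difference between post-tx and pre-tx was an interaction term in the 12 Cat-Tg libraries. Alternatives used limma 3.58.1, DESeq2 1.42.0, other filters, normalizations, fold thresholds and libraries, and left out each replicate in turn. With a replicate left out few residual degrees of freedom remained, and edgeR p values could become very small. Cd8b1, for example, had an edgeR adjusted p of 3.19e-76 without replicate 3. Calls kept or gained in these fits are therefore only a limited check. Ratios carry exact binomial 95% intervals, which cover counting error only. The methods sort both cell types from each mouse and the labels share replicate numbers, but same-numbered libraries deviated from their group means with correlations of -0.078, 0.083 and 0.057, none over 0.1. Libraries of different numbers had correlations from -0.209 to 0.149, so the same-numbered pairs did not stand out.

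Genes were named as the markers, the members of the lineage, regulatory T and cytotoxic lists, the members with the smallest p in other lists, the 15 highest and 15 lowest log2 fold changes as described, and the 5 strongest interactions of each sign. The members and lists were chosen with earlier results of these data known, the macrophage list was added after its values were seen, and genes outside the rule, such as S100a8, Cd5 and Ncr1, were chosen after their values were seen. Some list members count in their lists but are not reported here. On simulated counts for 14394 genes with this pre-tx design, 40% of genes changed by a log2 fold change of 1 and 85% of those changed by 2 were recovered, and 4 of 14194 unchanged genes were called. For the interaction 1% and 26% were recovered, and 1 of 15087 unchanged genes was called. Only genes with a mean of at least 10 CPM were changed. Spread followed the trend over all genes, with no replicate effect. These rates therefore do not cover genes at low CPM or with a spread off the trend.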

Additional observations from a re-analysis of the deposited data

Results flagged for a closer look

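The interaction was checked for members of all lists except the receptor and immunoglobulin segments, less some not reported here. The genes named for extreme values were added. Of all these, 401 had an interaction result. For 52 of the 401 genes the CD8 minus CD4 difference of Cat-Tg cells differed between post-tx and pre-tx, against 0.966% of all genes tested. The test was the edgeR interaction (adjusted p at most 0.05 and an absolute log2 difference of at least 1). Some of the 401 were included because their interaction was strong, and without them the count was 42 of 391. Others were included for an extreme pre-tx fold change or as members of lists chosen with these data known. The same pre-tx libraries enter the interaction, so these counts only describe the genes included and cannot show an excess over all genes. The values in parentheses are the post-tx minus the pre-tx difference on the log2 scale, so a positive value means that CD8 stood higher against CD4 at post-tx than at pre-tx. The post-tx cells were sorted from recipients that had also received wild type marrow, so the time, the host and the marrow cannot be told apart. The Y-linked transcripts averaged a sum of 169 CPM in CD8 and 232 CPM in CD4 at pre-tx. At post-tx the sums were 7.74 and 4.5 CPM (all scaled over the 24 libraries). A difference in donor sex therefore cannot be told apart from the time either. Without replicate 2 the number of genes past this test fell to 26 of all genes tested.

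Among inhibitory and costimulatory receptors, larger values at post-tx were found for Pdcd1 (5.37), Lag3 (4.24), Tigit (3.02), Cd160 (3.33), Tnfrsf4 (3.27) and Tnfrsf9 (3.83). Among regulatory T cell genes they were found for Foxp3 (4.66), Il2ra (5.30), Nrp1 (3.49) and Entpd1 (2.70). Cytotoxic and natural killer cell genes in the same direction were Fasl (3.46), Gzma (2.92), Gzmk (3.15), Prf1 (2.29), Crtam (4.64), Klrb1c (5.58) and Klrg1 (4.06).

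Homing and surface genes with a larger value at post-tx were Cx3cr1 (4.92), Cxcr3 (1.84), Itgax (4.32), Itgb3 (3.28) and Ly6c1 (3.61), and those with a smaller value were Ccr7 (-3.70), Ccr9 (-4.58) and Itgae (-4.93). Smaller values were also found for the MHC class II genes Cd74 (-2.34), Ciita (-4.28), H2-Aa (-2.27), H2-Ab1 (-2.41), H2-DMa (-1.99), H2-DMb2 (-3.18) and H2-Eb1 (-2.95) and for the cytokine receptor genes Il6ra (-3.59) and Ifngr2 (-4.27). The spleen macrophage genes averaged a sum of 2556 CPM in CD4 and 105 CPM in CD8 at pre-tx. At post-tx the sums were 13560 and 404 CPM (all scaled over the 24 libraries). The part of these other cells in the interactions was not tested.

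The other named genes with a larger value were Bhlhe40 (2.59), D630039A03Rik (6.30), Dhrs13 (6.70), Kifc1 (7.29), Lat2 (6.69), Plekhf1 (9.28) and Sh2d1a (2.07). The other named genes with a smaller value were Amy2a1 (-7.00), Bcl2 (-1.89), C4b (-5.78), Eng (-6.85), Ggt1 (-3.66), Igfbp4 (-4.33), Lcn4 (-3.33), Nucb2 (-5.95), Plau (-8.20), Stx2 (-4.36) and Tcf7l2 (-4.07). At pre-tx Plekhf1, Kifc1, D630039A03Rik and Dhrs13 averaged 0.0525, 0.0805, 0.124 and 0.233 CPM in CD8. At post-tx Plau averaged 0.0237 CPM and Amy2a1 0 CPM in CD8. These levels were below or near the limit set by 3 counts, so the fitted values of these genes are no measured folds.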

How the results depend on the processing

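Of 133 genes followed through 13 alternatives, 116 were called with edgeR and 57 were called in every alternative that tested them, and none reversed. DEGs numbered 240 to 411 with a replicate left out, those higher in CD8 121 to 205, those higher in CD4 112 to 216 and genes at an adjusted p of at most 0.05 327 to 424. DEGs higher in CD8 numbered 120 with no replicate block, 277 with limma-voom, 118 with length-scaled TPM counts, 105 with the 12 Cat-Tg libraries in the fit and 43 with all 24, where DEGs and genes past the adjusted p were both 224. DESeq2 gave 1061 DEGs (409 higher in CD8, 652 in CD4) and 1445 genes past the adjusted p. No filter on low counts gave 840 (319 and 521) and 952. Genes past the adjusted p were 928 with limma-voom, 893 with at least 10 counts in each library and 303 with length-scaled TPM counts. A log2 threshold of 2 left 256 DEGs, 59 higher in CD8. The cause of these differences was not tested, except that a stricter fold threshold removes genes by construction.

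The pairing by replicate number changed 19 calls among the genes followed, which were lost with no replicate block. For the difference between post-tx and pre-tx, the count of 157 became 290 with no replicate block, 246 with limma-voom, 512 with no filter and 26 to 325 with a replicate left out. The median log2 fold change of all genes, -0.07, was -0.26 with no filter, -0.12 with 12 libraries and -0.14 with 24.

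Depth sets a limit at 3 counts, 0.0991 to 0.154 CPM. Genes such as Il21 and Il4 fell below the filter when a replicate was left out, and so did Cd4 and Il2ra without replicate 2. The filter still asked for 3 libraries, so a gene low in CD8 could go untested at any level in CD4.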
